A study of Rattus norvegicus with 6 samples.

Results

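These 10 genes were studied in the rat nucleus accumbens: Cdc14a, Ubash3b, Bcl2, Gng2, Bcar3, Fgfr1, Plagl1, Abtb2, Tmem178a and Hsf2bp. They are 10 of 25629 genes in the count tables, found by their gene symbols, and each symbol has 1 row. They were chosen by measured values of these same data: the difference between naloxone and saline libraries in spiny neurons that express the dopamine receptor Drd2. Their differences in Drd2-gated nuclei are therefore given as a description, with no test. The rule also sets them against Drd1-gated nuclei and the other marker-gated classes. Tests in those classes are given, but a lack of change there may have entered the choice and is no independent evidence about these genes.

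Nuclei came from nucleus accumbens punches of 12 adult Sprague-Dawley rats, 6 male and 6 female, aged 90 to 120 postnatal days. All rats, in both groups, had learned to press for heroin under fixed-ratio schedules with 1 progressive-ratio test, so there is no heroin-free group. After the last session they received saline, or naloxone, an antagonist of opioid receptors that can precipitate withdrawal in opioid-dependent animals, and brains were taken 1 h later. The rats were combined into 6 single-nucleus libraries, each a pool of males and females: saline replicates 1 to 3 and naloxone replicates 4 to 6. The labels do not give the number of rats of each sex in a library, and p-values measure the spread between these pools.

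The accumbens consists mostly of GABA-releasing spiny projection neurons in 2 main classes, which carry the dopamine receptor Drd1 or Drd2. Drd2 couples to inhibitory G proteins, as the opioid receptors do, and Drd2 neurons also make the adenosine receptor Adora2a and the opioid peptide precursor Penk. Acute loss of inhibitory receptor tone raises cyclic AMP signalling in neurons of this kind, and genes such as Homer1, Nr4a3 and Fos, known as immediate early genes, are transcribed within an hour of strong activity. The 10 genes have diverse roles. Cdc14a is a dual-specificity phosphatase, Ubash3b (Sts-1) a phosphatase that restrains tyrosine kinase signalling, and Gng2 a gamma subunit of G proteins. Fgfr1 is a receptor tyrosine kinase for fibroblast growth factors, and Bcar3 an adaptor that binds Cas-family scaffolds. Bcl2 is the founding inhibitor of apoptosis, Plagl1 (Zac1) an imprinted zinc-finger transcription factor, Abtb2 an ankyrin and BTB domain protein, Tmem178a a membrane protein tied to calcium handling, and Hsf2bp a partner of the heat shock factor HSF2 with a role in meiotic recombination.

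The count tables hold 64260 barcodes, of which 58960 nuclei were used, with total counts of 55739350 to 76272798 UMIs per library. A UMI is a molecular identifier, so each count stands for 1 captured RNA molecule. Any pair of libraries shared 19 to 45 barcode sequences, at most 0.408% of the smaller library. Nuclei were put in classes by marker UMIs. The Drd2 gate (at least 2 Drd2 UMIs and 0 Drd1 UMIs) held 6116 nuclei, 768 to 1603 per library, and the Drd1 gate (at least 2 Drd1 UMIs and 0 Drd2 UMIs) held 714, 75 to 177 per library. Adora2a, which the gates did not use, was at 49.7 to 76.7 CPM (UMIs per 1000000 UMIs of the summed nuclei) in the 6 Drd2-gated sums and at 1.22 to 3.81 in the Drd1-gated sums. Penk was at 81.5 to 152 CPM against 18.4 to 63.9, and Isl1, a transcription factor of the Drd1 lineage, at 7.66 to 13.9 against 37.9 to 53.4.

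Some Drd2-gated nuclei stand apart. The Xist transcript is made in female cells and the genes Ddx3y, Kdm5d, Uty, Eif2s3y and Usp9y lie on the Y chromosome, so a nucleus should carry UMIs of 1 kind. Of the Drd2-gated nuclei, 948 (15.5%, 107 to 304 per library) carried both kinds, with astrocyte markers (4 genes) summing to 414 to 465 CPM in the saline libraries and 282 to 541 CPM in the naloxone libraries. Without them the same markers summed to 58.7 to 130 CPM and 66.3 to 114 CPM. Several members are well expressed in glia. Levels in Drd2-gated nuclei without these nuclei are given below for Cdc14a only. For the other members the values below include them, and the part of these nuclei in those values was not tested.

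Promoter sequences show what the genes share upstream of any count. RefSeq promoter windows of the GRCr8 assembly, 250 bases before and 50 from the transcription start on, matched 9 of the 10 symbols. Fgfr1 was not matched. The windows were searched on both strands for the cyclic AMP response element TGACGTCA, its core TGACG, called the short site here, the AP-1 motif TGANTCA and the EGR motif GCGTGGGCG. None of the 10 member windows (Cdc14a has 2) holds the full element, which 1.83% of 33469 rat promoter windows hold, the AP-1 motif (7.33%) or the EGR motif (0.544%). Every full element also contains the short site. The short site is in 2 of the 10 member windows, those of Ubash3b and Tmem178a, and in 21.2% of all windows. Those 2 are shown with the short site in capitals, as CGTCA because it lies on the opposite strand, beside a window of Cdc14a, which holds none of the 4 motifs. The windows lie at chr8:50428972-50429271, chr6:19815760-19816059 and chr2:207065726-207066025 of GRCr8, all on the minus strand, and are written 5′ to 3′ along the gene. The short site starts at position -86 from the start site in Ubash3b and at position 25 in Tmem178a.
Ubash3b: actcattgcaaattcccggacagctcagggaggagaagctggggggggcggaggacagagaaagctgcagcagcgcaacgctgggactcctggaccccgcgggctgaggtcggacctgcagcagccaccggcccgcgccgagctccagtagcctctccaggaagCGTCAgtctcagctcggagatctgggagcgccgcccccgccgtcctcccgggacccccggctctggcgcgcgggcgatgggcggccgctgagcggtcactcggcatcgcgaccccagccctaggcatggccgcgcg
Tmem178a: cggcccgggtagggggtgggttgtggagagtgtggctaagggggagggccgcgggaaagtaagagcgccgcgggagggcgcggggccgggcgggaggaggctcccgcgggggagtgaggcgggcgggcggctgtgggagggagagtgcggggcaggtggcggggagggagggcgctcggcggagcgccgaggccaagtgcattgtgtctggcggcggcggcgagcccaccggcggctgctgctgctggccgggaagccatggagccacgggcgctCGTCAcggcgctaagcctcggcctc
Cdc14a: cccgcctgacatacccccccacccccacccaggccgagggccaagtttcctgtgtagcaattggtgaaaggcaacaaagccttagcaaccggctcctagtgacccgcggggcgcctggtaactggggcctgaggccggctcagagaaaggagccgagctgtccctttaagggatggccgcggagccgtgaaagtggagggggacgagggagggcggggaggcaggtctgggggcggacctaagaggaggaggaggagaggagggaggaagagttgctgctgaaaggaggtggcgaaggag
The windows of Ubash3b and Tmem178a are rich in G and C (71.7% and 76.7%), that of Bcl2 is poor (32.7%), and the median of all windows is 51.7%. A match to a motif is a match of letters and no measurement of binding.

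In Drd2-gated nuclei, 8 of the 10 members had higher mean levels in the naloxone libraries, by 1.66-fold for Fgfr1 to 3.50-fold for the sparsely counted Hsf2bp, and 2 had lower means, Bcar3 and Abtb2. The naloxone and saline libraries did not overlap for 7 members, among 2415 of 13877 genes tested (17.4%) that did not overlap in this gate. The quasi-likelihood test of edgeR, a model of counts fitted to all genes, called 7 genes in this gate at an adjusted p under 0.05 (0.0504% of those tested), of which 1 is a member, Cdc14a. DESeq2 called 111 genes, 6 of them members. Nothing is read from these counts of members, because the same contrast chose them.

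**Figure D1:**
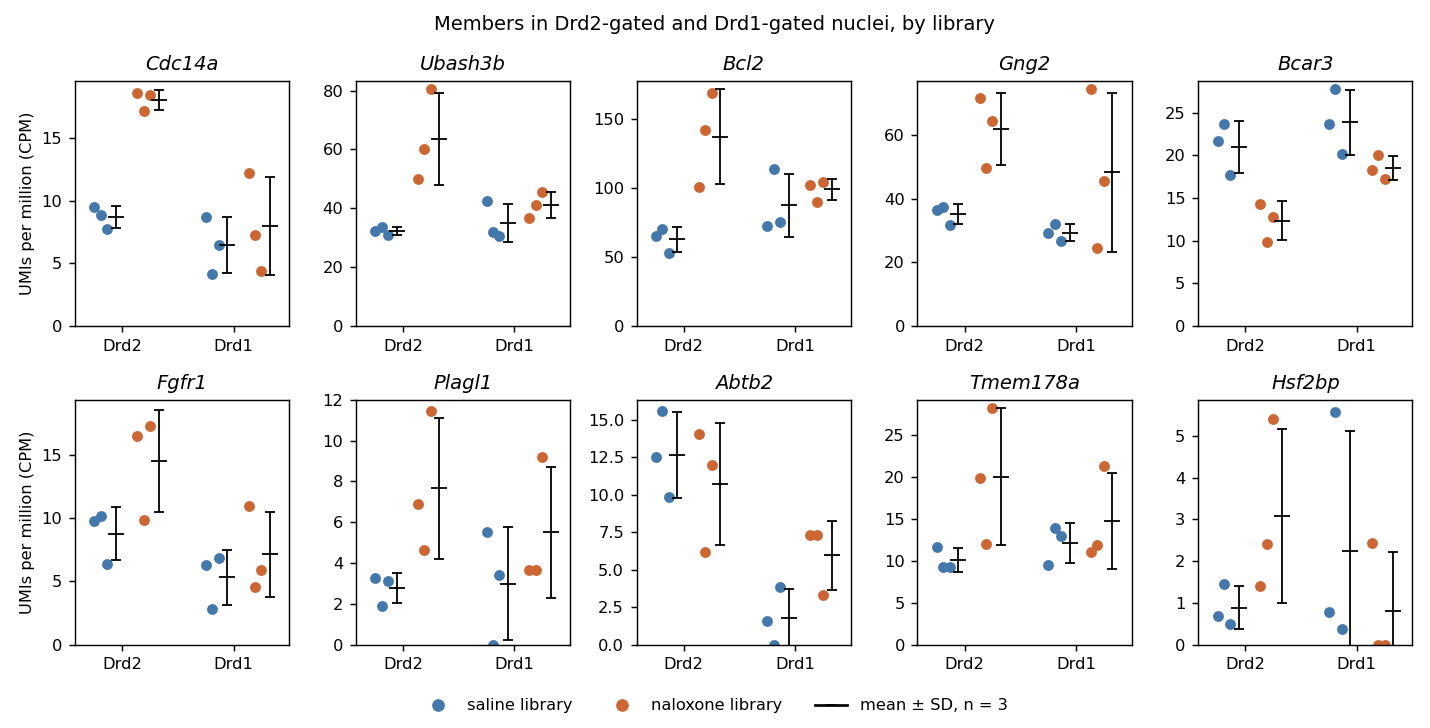
Level of each member in UMIs per 1000000 (CPM, vertical axes from 0) in Drd2-gated and Drd1-gated nuclei. Points are the 3 saline (blue) and 3 naloxone (orange) libraries, and black bars are the mean ± SD. For Cdc14a in the Drd2 gate the naloxone libraries lie at 17.2 to 18.6 CPM, above the saline libraries at 7.74 to 9.49.

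Cdc14a was at 9.49, 8.85 and 7.74 CPM in the saline libraries and at 18.6, 17.2 and 18.4 CPM in the naloxone libraries. The 2 groups were apart and each was tight, at 8.69 ± 0.886 against 18.0 ± 0.773 CPM (SD, n = 3), a log2 change of 1.07 ± 0.12 (SE). Without the nuclei that carry both Xist and Y-linked UMIs the saline level was 4.77 ± 0.423 CPM and the naloxone level was 17.2 ± 1.43 CPM, a 3.61-fold difference in place of 2.08-fold.

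Ubash3b, the phosphatase, was at 32.4, 33.6 and 30.8 CPM in saline and at 50.1, 60.1 and 80.6 CPM after naloxone. Here the saline libraries lay close together and the naloxone libraries spread over a wide range, all above saline, with a log2 change of 1.00 ± 0.16 (SE).

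Bcl2 was at 65.2, 70.7 and 52.8 CPM in saline and at 101, 142 and 169 CPM after naloxone. It had the same shape: no overlap, and a naloxone SD of 34.3 CPM against 9.18 in saline (n = 3 each).

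Gng2 was at 36.4, 37.3 and 31.6 CPM in saline and at 71.5, 49.6 and 64.3 CPM after naloxone. Its order among the naloxone libraries differed from that of Ubash3b and Bcl2, with replicate 5 lowest.

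Tmem178a was at 11.7, 9.22 and 9.28 CPM in saline and at 19.9, 12.0 and 28.2 CPM after naloxone, so replicate 5 barely exceeded the highest saline library. Plagl1, at 3.26, 1.90 and 3.09 CPM in saline, was at 6.91, 4.63 and 11.4 CPM after naloxone, again with replicate 5 lowest and replicate 6 highest. Both gene levels rest on few molecules: Plagl1 had 26 to 133 UMIs per library and Tmem178a 114 to 328.

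Fgfr1 and Hsf2bp were higher on average but overlapped. Fgfr1 was at 9.78, 10.2 and 6.35 CPM in saline and at 16.5, 9.89 and 17.3 CPM after naloxone, where replicate 5 sat inside the saline range. Hsf2bp had 6 to 63 UMIs per library, and naloxone replicate 6 had 63. Its log2 change of 1.81 became 1.07 without that library and 2.43 without saline replicate 2.

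Bcar3, the Cas-binding adaptor, went the other way in every library, from 21.7, 23.6 and 17.7 CPM in saline to 14.4, 9.89 and 12.8 CPM after naloxone. Its log2 change was -0.76 ± 0.16 (SE). Abtb2 did not separate the groups, at 12.6, 15.6 and 9.85 CPM in saline against 14.0, 6.21 and 12.0 CPM after naloxone, and its direction turned to 0.04 on the log2 scale when naloxone replicate 5 was left out. Without the nuclei that carry both Xist and Y-linked UMIs its log2 change was 0.182.

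The Drd1-gated nuclei of the same libraries were the first class set beside them. Only 5 members had enough counts to be tested there, namely Ubash3b, Bcl2, Gng2, Bcar3 and Tmem178a, and none was called (1 of 5 at an unadjusted p under 0.05, DESeq2 0). In this gate edgeR called 3 of 8842 genes (0.0339%), and DESeq2 3. Of the 10 members, 1 had groups that did not overlap, against 1037 of the 8842 genes tested (11.7%). Bcar3 was that member, at 23.7, 27.8 and 20.2 CPM in saline and 18.3, 20.1 and 17.3 CPM after naloxone (log2 change -0.33 ± 0.24 SE, edgeR adjusted p = 0.874). The largest difference was that of Gng2, at 29.2, 32.0 and 26.7 CPM in saline and 74.3, 24.6 and 45.6 CPM after naloxone. Its log2 change of 0.69 ± 0.27 (SE) had an unadjusted p of 0.0201 and an edgeR adjusted p of 0.741, and naloxone replicate 5 lay below all 3 saline libraries. Bcl2 was at 87.5 ± 23.1 CPM in saline and 99.2 ± 7.72 CPM after naloxone (SD, n = 3), a log2 change of 0.24 ± 0.16 (SE, adjusted p = 0.874). Ubash3b was at 35.03 ± 6.58 and 41.1 ± 4.51 CPM (log2 change 0.27 ± 0.19 SE, adjusted p = 0.874). With 3 to 17 Cdc14a UMIs per library, no change of the size described for Drd2-gated nuclei could be tested in this gate. Requiring only 1 Drd1 UMI gave larger sums, in which Cdc14a was at 8.83, 6.55 and 11.5 CPM in saline and 13.6, 9.15 and 7.05 CPM after naloxone, with the groups intermixed. In those larger sums Gng2 was at 38.7, 52.7 and 50.7 CPM in saline and 73.4, 61.7 and 71.9 CPM after naloxone (log2 change 0.53, edgeR adjusted p = 0.148). Ubash3b was at 40.8, 35.7 and 35.5 CPM and then at 43.9, 48.1 and 46.1 CPM (log2 change 0.30, adjusted p = 0.338). For both genes the groups did not overlap there, though neither passed the test.

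The change was set against the change in Drd1-gated nuclei within libraries, as the log2 change in Drd2 minus that in Drd1 nuclei. It was 1.13 ± 0.42 (SE) for Cdc14a, 1.00 ± 0.16 for Bcl2, 0.82 ± 0.19 for Ubash3b and 0.72 ± 0.31 for Tmem178a. For Gng2 it was 0.20 ± 0.21 and for Bcar3 -0.36 ± 0.25. It was 0.81 ± 0.44 for Fgfr1, 0.65 ± 0.55 for Plagl1 and -1.07 ± 0.61 for Abtb2, and 4.05 ± 1.38 for Hsf2bp, which had 0 to 4 UMIs in the Drd1-gated sums. With gates of at least 1 UMI it was 2.36 ± 0.37 for Plagl1 and 1.89 ± 0.78 for Hsf2bp, so the values of these sparse genes depend on the gate. No p is given, since the Drd2 contrast is part of the term. Among the other genes, 9 of 13227 (0.068%) were called for this term by edgeR.

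**Figure D2:**
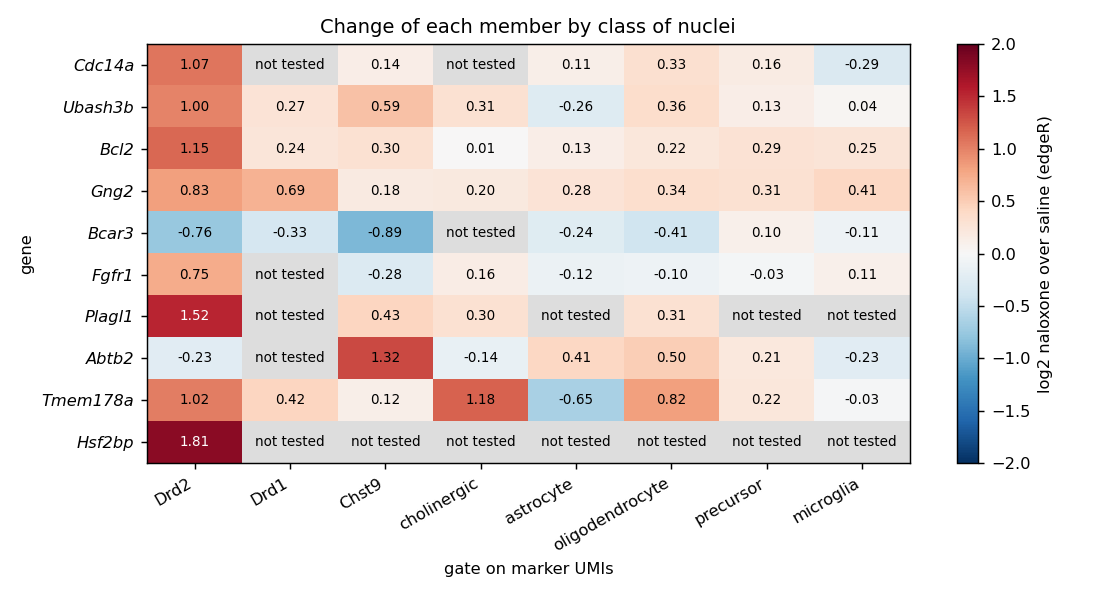
Log2 change, naloxone over saline, of each member (rows) in each class of nuclei (columns), from edgeR fits per class. Gray cells had too few counts to be tested. Values over 0.8 appear for 7 members in the Drd2 column and elsewhere for Abtb2 in Chst9-gated nuclei and for Tmem178a in cholinergic-gated nuclei and oligodendrocytes.

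A second class of spiny neurons, gated on Chst9 and Grm8 without Drd2, gave the 1 member called outside Drd2 nuclei. There were 3636 such nuclei, and edgeR called 15 of 12168 genes (0.123%), DESeq2 20. Ubash3b rose in them, from 49.1, 52.4 and 57.2 CPM in saline to 81.0, 75.0 and 80.7 CPM after naloxone. The groups were apart and tight, with a log2 change of 0.59 ± 0.10 (SE) and an edgeR adjusted p of 0.0183. Over the 13 alternatives the change stayed between 0.55 and 0.65, and the adjusted p ran from 1.84e-05 to 0.11. It passed 0.05 in 8 of the 13, and leaving out any library other than naloxone replicate 5 ended the call (adjusted p of 0.079 to 0.11).

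The other members of the Chst9 gate did not pass. At an unadjusted edgeR p under 0.05 were 4 of the 9 members tested, namely Ubash3b, Gng2, Bcar3 and Abtb2. Among all genes tested in this gate, 1124 of 12168 had such a p. For 3 of the 10, Ubash3b, Gng2 and Abtb2, the groups did not overlap, as for 15.3% of all genes tested. Abtb2 was at 7.93, 4.53 and 2.41 CPM in saline and 12.3, 13.0 and 10.1 CPM after naloxone (log2 change 1.32 ± 0.30 SE, edgeR adjusted p = 0.12). In Drd2 nuclei its groups overlapped, and the sign of its difference depended on the setting. Bcar3 was at 5.49, 10.9 and 8.76 CPM and then at 4.83, 5.50 and 3.55 CPM, with the groups touching (log2 change -0.89 ± 0.28 SE, adjusted p = 0.349). Cdc14a was at 7.96 ± 0.553 CPM in saline and 8.85 ± 2.37 CPM after naloxone (SD, n = 3), with a log2 change of 0.14 ± 0.24 (SE, adjusted p = 0.907). Bcl2 changed by 0.30 ± 0.17 (SE, adjusted p = 0.612).

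In glia and cholinergic interneurons no member was called by edgeR (7 of 40 tests at an unadjusted p under 0.05, DESeq2 0). By class these were 1 of 7 members in cholinergic-gated nuclei, 2 of 8 in astrocytes, 3 of 9 in oligodendrocytes, 0 of 8 in precursors and 1 of 8 in microglia. Over all genes, 803 of 10667 in astrocytes, 916 of 12387 in oligodendrocytes and 702 of 9730 in microglia had such a p. The edgeR test called 0 of 8812 genes in cholinergic-gated nuclei (0%; 452 at an unadjusted p under 0.05, DESeq2 0) and 0 of 9501 in oligodendrocyte precursors (0%; 514 unadjusted, DESeq2 3). It called 17 of 10667 in astrocytes (0.159%), 19 of 12387 in oligodendrocytes (0.153%) and 4 of 9730 in microglia (0.0411%). Among members in these classes, the lowest unadjusted p was that of Abtb2 in oligodendrocytes, at 70.3 ± 7.41 CPM in saline and 98.8 ± 15.9 CPM after naloxone (SD, n = 3; log2 change 0.50 ± 0.15 SE, edgeR adjusted p = 0.474). Gng2 in microglia was at 200 ± 40.6 and 269 ± 21.2 CPM (log2 change 0.41 ± 0.15 SE, adjusted p = 0.536). Tmem178a in cholinergic nuclei was at 29.96, 16.2 and 14.9 CPM in saline and 82.4, 27.7 and 28.3 CPM after naloxone, a spread set by replicate 4 (adjusted p = 0.929). Somatostatin, Pthlh and endothelial nuclei, 101 to 109 in each gate, were too few in some library (under 20) for a fit.

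In saline, most members had their highest CPM in a class other than spiny neurons. They were still found in spiny neurons, as with Bcl2 in 36.3% of Drd2-gated and 43.5% of Drd1-gated saline nuclei. Astrocytes ranked first of 8 classes for Cdc14a (168 ± 19.4 CPM, SD, n = 3), Bcl2 (350 ± 28.1), Bcar3 (237 ± 23.3), Fgfr1 (122 ± 9.45) and Gng2 (206 ± 9.12), although Gng2 in microglia (200 ± 40.6) lay within the spread. Microglia ranked first for Ubash3b (159 ± 18.5 CPM) and oligodendrocyte precursors for Abtb2 (486 ± 32.2 CPM, against 70.3 ± 7.41 CPM in the next class, oligodendrocytes). Drd2-gated nuclei ranked 5th for Cdc14a (8.69 CPM), where Chst9-gated (7.96 ± 0.553), cholinergic (7.34 ± 2.09) and Drd1-gated nuclei (6.44 ± 2.25) lay within the spread, and 7th for Ubash3b and Fgfr1. Plagl1 was highest in cholinergic nuclei (9.48 ± 1.21 CPM) and was at 5.92 ± 0.171 CPM in Chst9-gated and 2.75 ± 0.741 CPM in Drd2-gated nuclei. Tmem178a was at 8.83 to 23.2 CPM in all 8 classes, and Hsf2bp at 2.25 CPM or below.

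Each library pools sexes, and the sex of a nucleus separates its levels within a library. The Drd2-gated nuclei comprised 2489 with Xist UMIs and no Y-linked UMI (female) and 2333 with the reverse (male). In naloxone replicate 4, Cdc14a was at 38.4 CPM in female nuclei and 5.65 CPM in male nuclei. In naloxone replicate 6 the order was the opposite, with 3.29 CPM in female nuclei and 26.6 CPM in male nuclei. Replicate 5 gave 19.2 CPM in female and 11.8 CPM in male nuclei. The saline values lay between 5.19 and 6.71 CPM in female and between 3.38 and 3.94 CPM in male nuclei. So the tight naloxone values of Cdc14a over whole libraries are averages over unlike sets of nuclei, and the female nuclei of replicate 6 were at or below the saline level.

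**Figure D3:**
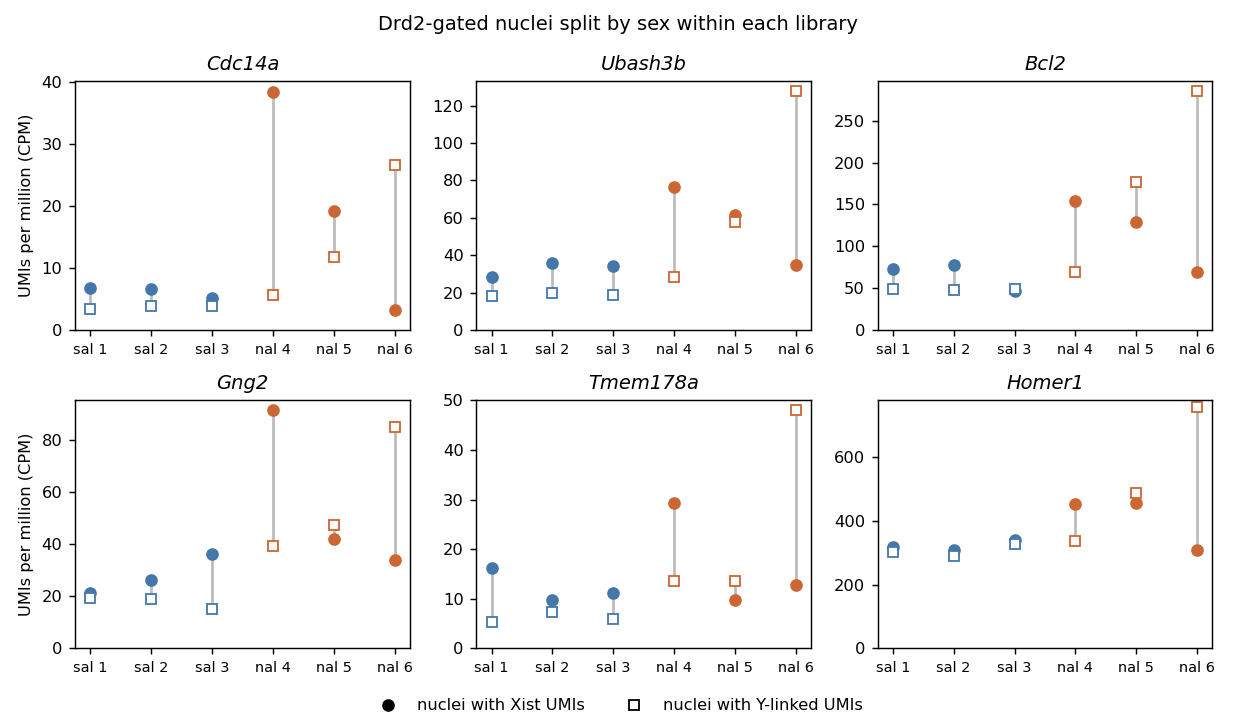
Level in UMIs per 1000000 (CPM) of 5 members and of Homer1 in Drd2-gated nuclei, split within each library into nuclei with Xist UMIs (filled circles) and with Y-linked UMIs (open squares). Blue marks saline and orange marks naloxone libraries, and gray lines join the 2 sexes of a library. The sexes lie far apart in naloxone replicates 4 and 6, in opposite orders, as with Cdc14a at 38.4 and 5.65 CPM in replicate 4.

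The same 2 sets were high for the other members. Bcl2 was at 155 CPM in female and 68.9 CPM in male nuclei of replicate 4, at 129 and 177 CPM in replicate 5, and at 69.7 and 286 CPM in replicate 6, against 46.8 to 77.4 CPM in female and 47.2 to 49.0 CPM in male saline nuclei. Ubash3b was at 76.5 and 28.2 CPM, 61.4 and 57.8 CPM, and 34.8 and 128 CPM in the same order, against 28.5 to 36.0 CPM in female and 18.3 to 19.7 CPM in male saline nuclei. Gng2 was at 91.5 and 39.3 CPM in replicate 4 and at 33.9 and 84.8 CPM in replicate 6, against 21.4 to 36.1 CPM in female and 15.04 to 19.4 CPM in male saline nuclei. Tmem178a was at 29.3 and 13.6 CPM in replicate 4 and at 12.7 and 48.0 CPM in replicate 6, against 9.81 to 16.3 and 5.35 to 7.36 CPM. The male nuclei of replicate 4 thus lay above all 3 male saline sets for Cdc14a, Ubash3b, Bcl2, Gng2 and Tmem178a, and below the female nuclei of that library. Bcar3 behaved otherwise: its 6 naloxone values ran from 5.15 to 13.3 CPM and the saline values from 8.83 to 20.1 CPM, with no such swing. In the female nuclei of replicate 6 Ubash3b, Bcl2, Gng2 and Cdc14a all lay inside or below the range of the saline female nuclei.

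Homer1, an immediate early gene that encodes a synaptic scaffold, split by sex in the same direction. It was at 453 and 336 CPM in female and male nuclei of replicate 4, 456 and 487 CPM in replicate 5, and 310 and 757 CPM in replicate 6, against 290 to 339 CPM in saline. Drd2 itself was at 508 to 623 CPM and Adora2a at 52.7 to 72.5 CPM over the 6 naloxone sets. In nuclei without a Cdc14a UMI, most of each set, Adora2a was lower in the 2 high sets. It was at 54.9 CPM in female and 69.9 CPM in male nuclei of replicate 4, and at 67.9 and 56.9 CPM in replicate 6. Penk had the same order there, at 86.0 and 111.4 CPM and at 111.5 and 92.4 CPM. The fewer nuclei with a Cdc14a UMI had the reverse order for both genes. These marker differences were not tested. Parts of the split appeared in the other spiny classes. In nuclei with at least 1 Drd1 UMI and no Drd2 UMI, Cdc14a was at 9.72 and 8.02 CPM in female and male nuclei of replicate 4 and at 5.20 and 5.597 CPM in replicate 6, with saline at 4.27 to 15.8 CPM, so the naloxone sets lay inside the saline range. Gng2 in those nuclei had the same opposite orders, at 84.0 and 53.0 CPM in replicate 4 and at 53.1 and 83.5 CPM in replicate 6, with saline at 22.9 to 67.3 CPM. In Chst9-gated nuclei Bcl2 was at 40.4 and 25.1 CPM in replicate 4 and at 21.4 and 41.1 CPM in replicate 6, with saline at 15.3 to 33.3 CPM. Bcl2 there had the order of the Drd2-gated nuclei, and its high sets lay above all saline sets. Sex and individual rat cannot be told apart here, because the labels do not tie nuclei to rats. No difference between sexes was tested.

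Single nuclei show where the extra molecules were. Each Drd2-gated nucleus with at least 4000 UMIs was thinned at random to 4000 UMIs, so that depth was equal, and the UMIs of the 8 members with higher naloxone means were summed per nucleus. In naloxone replicate 6 the male nuclei had a mean of 2.76 UMIs and a variance of 20.9 (290 nuclei), and the female nuclei a mean of 0.639 and a variance of 1.12 (324 nuclei). In replicate 4 the female nuclei had a mean of 1.77 and a variance of 12.1 (256 nuclei) and the male nuclei 0.649 and 1.28 (367 nuclei). Replicate 5 gave 1.14 and 5.30 in female nuclei and 1.33 and 4.39 in male nuclei. The saline sets had means of 0.509 to 0.649 in female and 0.363 to 0.448 in male nuclei, and variances of 0.511 to 1.24. The variance thus exceeded the mean by up to 7.57 times after naloxone and by at most 1.95 times in saline.

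**Figure D4:**
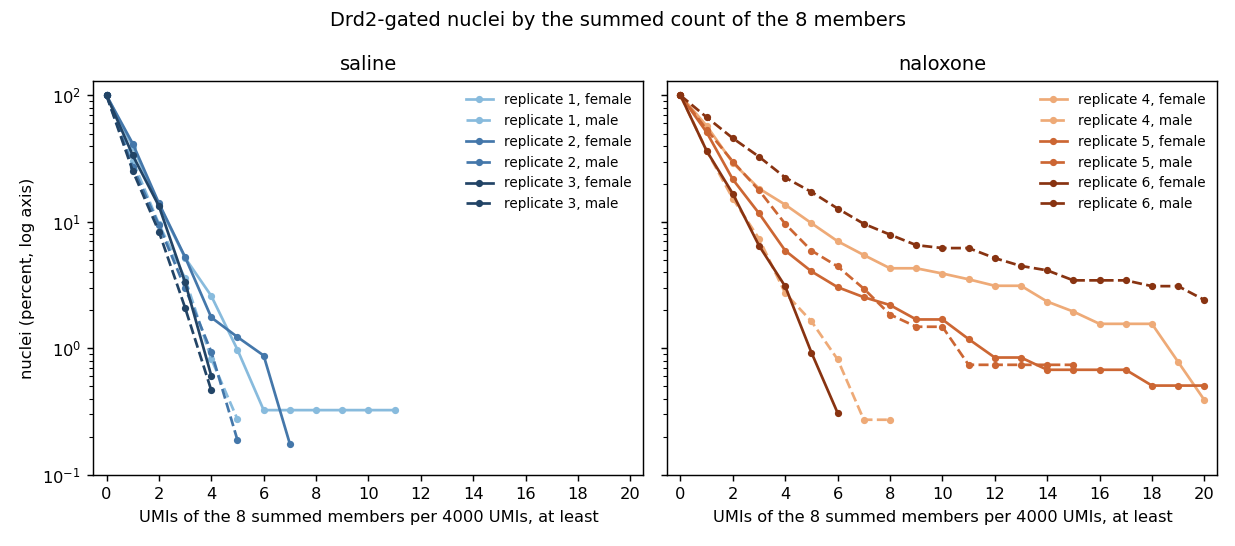
Percent of Drd2-gated nuclei (log axis) with at least the number of UMIs on the horizontal axis, summed over the 8 members with higher naloxone means after thinning each nucleus to 4000 UMIs. Lines are libraries split by sex (solid female, dashed male). Saline lines end at or before 11 UMIs, while 4 of the 6 naloxone lines carry a tail beyond that, led by the male nuclei of replicate 6 (12.8% at 6 or more UMIs) and the female nuclei of replicate 4 (7.03%).

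The tail held few nuclei. The 8 summed members were chosen by the naloxone difference in these same nuclei, so a higher share after naloxone than in saline follows in part from that choice. Nuclei of a library are not replicates, and the intervals below compare no groups. Nuclei with 6 or more summed UMIs, a cut set after the distribution was seen, made up 12.8% of male nuclei in naloxone replicate 6 (37 of 290; exact 95% binomial interval 9.15 to 17.2%, counting error only) and 7.03% of female nuclei in replicate 4 (18 of 256; 4.22 to 10.9%). In replicate 5 they made up 3.05% of female (18 of 591; 1.82 to 4.77%) and 4.44% of male nuclei (12 of 270; 2.32 to 7.64%). The male nuclei of replicate 4 had 3 of 367 (0.817%) and the female nuclei of replicate 6 had 1 of 324 (0.309%). In saline, 4 of the 6 sets had 0 such nuclei, which by a rule of 3 counts over the number of nuclei allows shares of up to 0.563 to 0.909% (exact 95% upper limits 0.690 to 1.11%), and the others had 1 of 308 and 5 of 570. The cut is a point on a range: in the male nuclei of replicate 6, 13 nuclei had 5 UMIs and 9 had 6. In Chst9-gated nuclei thinned the same way, the whole libraries had 0.241 to 0.655% in saline and 0.662 to 1.18% after naloxone, with variances of 1.23 to 1.70.

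Shares of nuclei with a UMI moved less than the totals. Cdc14a was found in 6.85, 6.42 and 6.35% of unthinned Drd2-gated nuclei in saline and in 9.28, 8.23 and 10.7% after naloxone. After thinning to 4000 UMIs, which left out 15 to 116 nuclei per library, the shares were 3.31, 3.09 and 2.20% and then 4.27, 4.04 and 5.18%. The highest count in a thinned nucleus was 2 or 3 UMIs in saline and 8 to 10 after naloxone, and the Fano factor (variance over mean) of Cdc14a was 1.09 to 1.32 and then 3.28 to 4.15. For Bcl2 the thinned shares were 19.4, 20.7 and 15.4% in saline and 24.7, 35.6 and 33.5% after naloxone, with Fano factors of 1.14 to 1.35 and 1.94 to 3.83. At 1000 UMIs per nucleus, Cdc14a was found in 0.821 ± 0.100% of Drd2-gated nuclei in saline (SD, n = 3; median depth 8960 UMIs before thinning) and in 0.588 ± 0.166% of Chst9-gated nuclei (6041 UMIs), against 18.6 ± 3.89% of astrocytes (3054 UMIs).

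Ubash3b was found more often in nuclei with Cdc14a in 5 of the 6 naloxone sets. Among male nuclei of replicate 6 thinned to 4000 UMIs, it was found in 73.7% of the 19 nuclei with a Cdc14a UMI and in 22.9% of the 271 without. Among female nuclei of replicate 4 it was found in 66.7% of 18 and 17.6% of 238, and in replicate 5 in 37.0% of 27 female nuclei against 11.9% of 564. The male nuclei of replicates 4 and 5 had it in 42.9% of 7 and 50% of 8, against 8.06% and 13.4%, and the female nuclei of replicate 6 in 0% of 3 against 10.3% of 321. The saline sets had 4 to 16 nuclei with Cdc14a. Ubash3b was more frequent in those of 4 saline sets, at 12.5 to 25.0% against 5.21 to 10.5%, and was found in none of those of the other two.

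Differences in co-occurrence between members were not tested. Bcl2 was found more often with Cdc14a in 5 of the 6 naloxone sets, from 37.0% against 33.0% in the female nuclei of replicate 5 to 87.5% against 37.0% in its male nuclei. Tmem178a was found in 5.56% of nuclei with and 5.46% of nuclei without Cdc14a in the female set of replicate 4, and in 14.3 against 3.89% in the male set. It was found in 3.70 against 3.72% and 0 against 4.96% in female and male nuclei of replicate 5, and in 0 against 3.12% and 15.8 against 7.38% in those of replicate 6. Hsf2bp was found with Cdc14a in 1 of the 6 naloxone sets, the male nuclei of replicate 6 (15.8 against 2.95%). Fgfr1 was more frequent with Cdc14a in all 6 naloxone sets. It ran from 12.5 against 0.763% in male nuclei of replicate 5 to 36.8 against 5.5% in male nuclei of replicate 6. Gng2 was more frequent in all but the male nuclei of replicate 4 (0 against 11.1%), though barely so in male nuclei of replicate 5 (12.5 against 11.8%).

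Nuclei with Cdc14a also held more RNA of astrocyte genes, in both groups. Slc1a2, an astrocyte glutamate transporter, was at 34.5 to 563 CPM in the unthinned nuclei with a Cdc14a UMI of the 6 saline sets and at 29.4 to 71.7 CPM in those without. After naloxone it was at 48.1 to 302 CPM against 29.5 to 80.7 CPM. It was higher with Cdc14a in all 12 sets, least in female nuclei of saline replicate 3 (34.5 against 29.4 CPM, with Slc1a3 at 5.75 against 13.6 CPM). Ubash3b in the female nuclei of naloxone replicate 4 with Cdc14a was at 327 CPM beside Slc1a2 at 302 CPM, and in the male nuclei of replicate 6 at 345 CPM beside 95.4 CPM. The part of glial RNA in these values was not tested.

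Nuclei of the tail were compared with the rest of their own set by summing counts, in the 4 naloxone sets with at least 10 such nuclei. Because the members define the tail, only other genes are described, and the genes named were picked after their values were seen. Homer1 was at 2148 CPM in the tail against 343 in the rest for female nuclei of replicate 4, 1765 against 420 and 1774 against 437 for female and male nuclei of replicate 5, and 2793 against 526 for male nuclei of replicate 6. Nr4a3, an orphan nuclear receptor of the immediate early class, was at 63.0 against 7.31, 197 against 9.69, 133 against 32.6 and 271 against 21.2 CPM in the same order. Fos was low, at 11.1 to 36.8 CPM in the tail and 0.791 to 4.44 CPM in the rest, and still higher in each of the 4. The tail sums are small, with 12 nuclei at a median of 7188 UMIs in male nuclei of replicate 5. Such low tail values therefore rest on very few molecules. Gng4, another G protein gamma subunit, was at 66.5 to 102 CPM against 9.49 to 20.6. The cyclic nucleotide phosphodiesterase Pde1c was at 1239 to 3293 CPM against 316 to 464 CPM, and the kinase Sik2, which is regulated by cyclic AMP signalling, at 488 to 691 against 136 to 181 CPM. The transcription repressor Bach2 and the protein kinase Prkca were also at least 2.93-fold higher in each of the 4 sets, with 5 CPM added to both values. Of 3256 genes with a mean of at least 50 CPM in the tail, 726 were higher in the tail in all 4 sets. This floor lets genes in through their tail level, so the share leans upward and is no background for the named genes. A rise in all 4 sets is in any case not particular to them.

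Other genes were lower in the tail, where low CPM values again rest on very few molecules. The delta opioid receptor Oprd1 was at 6.30 against 43.9 CPM, 7.03 against 85.2, 22.2 against 65.6 and 26.0 against 64.9 CPM. Cyp7b1, an oxysterol hydroxylase, was at 0 to 14.1 against 85.4 to 128 CPM, and the adhesion gene Cntn6 at 0 to 19.5 against 78.1 to 108 CPM. Drd2 was at 461 to 543 CPM in the tail and 513 to 619 CPM in the rest, and was lower in each of the 4 sets. Adora2a was also lower in each, at 25.2 against 52.5, 49.2 against 73.4, 55.4 against 74.5 and 41.1 against 57.5 CPM. Penk was mixed, at 132 against 84.7, 148 against 166, 88.7 against 149 and 130 against 87.4 CPM. Slc1a2 was not raised throughout (11.1 to 127 against 36.2 to 105 CPM). The tail nuclei had median depths of 7188 to 11041 UMIs, against 8464 to 15593 UMIs in the rest, and were lower than the rest in each of the 4 sets.

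The calcitonin receptor gene Calcr divided the tail. It was at 1631 against 227 CPM, 1990 against 194 CPM and 1150 against 179 CPM in 3 of the 4 sets, and at 155 against 169 CPM in male nuclei of replicate 5. Drd2-gated nuclei were therefore split by a Calcr UMI, a choice made after these values were seen. Because the summed members define the tail, their levels in this split are no evidence independent of it. The nuclei with a Calcr UMI had Cdc14a at 9.41, 12.8 and 12.1 CPM in saline and 33.4, 38.0 and 42.5 CPM after naloxone. Without a Calcr UMI, Cdc14a was at 9.52, 7.13 and 6.08 CPM and then at 8.09, 9.28 and 6.77 CPM, with the groups intermixed. Tmem178a had the opposite pattern. It was at 9.41, 9.45 and 8.25 CPM and then 14.1, 9.98 and 5.01 CPM with Calcr, and at 12.6, 9.12 and 9.68 CPM and then 23.9, 12.8 and 39.5 CPM without. Plagl1 went with Tmem178a, at 2.70 ± 0.650 and 3.85 ± 1.36 CPM with Calcr and at 2.76 ± 1.04 and 9.85 ± 5.23 CPM without (SD, n = 3). Ubash3b and Bcl2 were higher after naloxone in both sets, by 2.79-fold and 2.62-fold with Calcr and by 1.63-fold and 1.91-fold without. Calcr was itself higher after naloxone in the gate, at 103, 116 and 125 CPM in saline and 234, 214 and 211 CPM after naloxone, so the 2 sets need not hold the same nuclei in both groups.

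**Figure D5:**
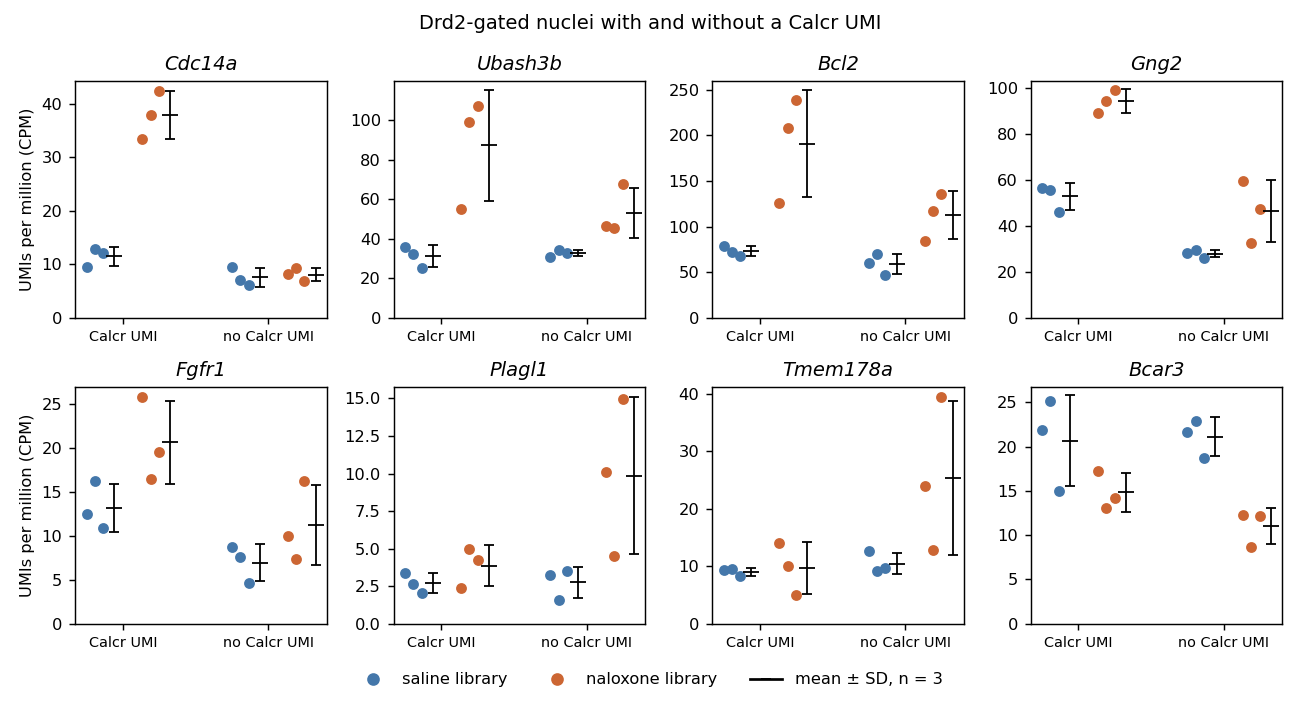
Level in UMIs per 1000000 (CPM) of 8 members in Drd2-gated nuclei with and without a Calcr UMI. Points are libraries (saline blue, naloxone orange) and black bars are the mean ± SD, n = 3. Cdc14a is higher after naloxone among nuclei with Calcr (33.4 to 42.5 against 9.41 to 12.8 CPM) and intermixed among those without, and Tmem178a and Plagl1 show the reverse.

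The gate was also split by opioid receptor UMIs, which was not planned. The tail is defined by a sum that includes Cdc14a and Ubash3b, and it held less Oprd1. The Oprd1 split is therefore no evidence independent of the tail. Nuclei with an Oprd1 UMI had Cdc14a at 7.34, 7.30 and 7.80 CPM in saline and 7.17, 8.36 and 9.25 CPM after naloxone, and nuclei without one had 11.3, 9.85 and 7.66 CPM and then 23.8, 23.7 and 25.8 CPM. For Ubash3b the means were 28.1 and 36.9 CPM with Oprd1 and 35.7 and 82.4 CPM without. A split by the mu receptor Oprm1 gave less contrast, with Cdc14a means of 11.8 and 22.0 CPM with an Oprm1 UMI and 7.29 and 15.6 CPM without. Nuclei with a receptor UMI were deeper in every library (for Oprd1, medians of 8042 to 17047 against 7135 to 12488 UMIs), and the part of depth in these values was not tested.

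Just outside the gate, nuclei with 1 Drd2 UMI and no Drd1 UMI had Cdc14a at 9.90, 19.7 and 15.3 CPM in saline and 28.8, 28.2 and 41.7 CPM after naloxone. Just inside, nuclei with 2 Drd2 UMIs had 9.31, 14.8 and 14.6 CPM and then 24.6, 38.0 and 33.8 CPM. With 5 or more Drd2 UMIs the values were 10.9, 4.26 and 5.39 CPM and then 11.9, 12.0 and 13.4 CPM. With no UMI of either receptor the groups were intermixed, at 24.8, 25.2 and 29.0 CPM and then 27.2, 23.9 and 28.9 CPM. That set includes the glial classes, so it does not continue the series of Drd2 counts. Requiring an Adora2a or Penk UMI beside Drd2 gave Cdc14a means of 8.66 ± 1.68 and 16.9 ± 2.56 CPM and Bcl2 means of 66.7 ± 9.44 and 139 ± 36.5 CPM (SD, n = 3).

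Relatives of the members were followed in 11 lists of families and partners. In Drd2-gated nuclei none of their 72 tested genes passed the edgeR test (10 at an unadjusted p under 0.05, DESeq2 2), where 1522 of all 13877 genes had such a p. In Drd1-gated nuclei none of 37 passed (4 unadjusted, DESeq2 0), where 550 of 8842 genes had such a p. In the list of cell cycle phosphatases, Cdc14b, the paralog of Cdc14a, was at 68.3 ± 0.422 CPM in saline and 90.6 ± 5.79 CPM after naloxone in Drd2-gated nuclei (SD, n = 3), with a log2 change of 0.42 ± 0.08 (SE, edgeR adjusted p = 0.0936, DESeq2 0.00767). It was the 1 of 5 tested genes of its list with an unadjusted p under 0.05. Of 10 tested members of the BCL2 family beside Bcl2, 1 had an unadjusted p under 0.05, and of 11 other G protein beta and gamma genes, 4 had. Those 4 were Gnb1, at 138 ± 2.72 and 161 ± 2.96 CPM, and Gnb2, Gnb3 and Gng7, which were lower after naloxone, with edgeR adjusted p of 0.238 to 0.421. Gng7, the gamma subunit that partners the striatal stimulatory G protein, was at 471 ± 34.8 and 379 ± 32.8 CPM. Spred2, an inhibitor of signalling below FGF receptors, was at 129 ± 5.34 and 180 ± 19.9 CPM (log2 change 0.49 ± 0.09 SE, adjusted p = 0.112, DESeq2 0.00113).

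Immediate early genes were compared in the same gates. Of 13 tested in Drd2-gated nuclei none passed the edgeR test, 4 had an unadjusted p under 0.05, and DESeq2 called 1, Homer1. Of the 4, Homer1, Egr4 and Nr4a3 had higher means after naloxone. For Nr4a3 the groups overlapped, at 11.3, 11.3 and 10.8 CPM in saline and 8.52, 22.1 and 22.5 CPM after naloxone. Egr4 had 6 to 33 UMIs per library. Npas4 was lower, at 3.72 ± 0.667 CPM in saline and 1.83 ± 1.22 CPM after naloxone (SD, n = 3). The median log2 change of the 13 was 0.47, beside 0.00 for all genes tested. Homer1 was at 301, 288 and 320 CPM in saline and 351, 458 and 493 CPM after naloxone (log2 change 0.53 ± 0.12 SE, edgeR adjusted p = 0.161). In Drd1-gated nuclei 3 were tested, with a median of -0.40. Nr4a3 was lower after naloxone there, at 26.8 ± 10.3 and 10.2 ± 7.45 CPM (log2 change -1.06 ± 0.39 SE, edgeR adjusted p = 0.68). Homer1 was at 412, 438 and 389 CPM there and 272, 394 and 278 CPM after naloxone (log2 change -0.40 ± 0.13 SE, edgeR adjusted p = 0.589). Of the 4 opioid receptor genes in Drd2-gated nuclei, Oprm1 was at 34.0 ± 3.33 CPM in saline and 49.4 ± 7.17 CPM after naloxone (log2 change 0.55 ± 0.12 SE, edgeR adjusted p = 0.161, DESeq2 0.0123). Oprk1 was at 12.9 ± 2.06 and 8.32 ± 1.65 CPM (log2 change -0.64 ± 0.18 SE, adjusted p = 0.256).

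The genes most like the members were found by the Pearson correlation of log2(CPM + 1) with the mean standardised profile of the 8 members, over 12 sums (6 libraries by the Drd2 and Drd1 gates) and 8339 genes. They were Ankrd55 (r = 0.93), Rftn1 (0.92), Mapk10 (0.90), Cdc14b (0.89) and Rab27b (0.89), and the sums share libraries and depth. The 8 members were chosen by the naloxone difference in the same Drd2 sums. A gene with a high correlation therefore shows that pattern by construction, and the values below are a description. Ankrd55 was at 51.9 CPM in saline and 89.1 CPM after naloxone in Drd2-gated nuclei, and at 53.7 and 60.2 CPM in Drd1-gated nuclei. Mapk10, which encodes the neuronal kinase JNK3, was at 614 and 727 CPM in Drd2-gated nuclei and 582 and 580.5 CPM in Drd1-gated nuclei.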

How the data were processed

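Single-nucleus libraries were made with the 10x GEM-X 3′ kit. The deposited matrices hold raw UMI counts per gene and barcode, made with Cell Ranger 9.0.1 on mRatBN7.2, and the submitters' processing notes also name Seurat 5.2.1 and R 4.4.0. The labels state 44592 nuclei; the files hold 64260 barcodes, of which 61609 passed a floor of 500 genes and a ceiling of 5% for mitochondrial reads. Doublets were ranked against simulated ones, and the top 2649 (4.30%), a number set by an assumed rate of 0.4% per 1000 nuclei, were removed. Medians were 4225 to 6473 UMIs per library.

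Nuclei were gated on marker UMIs. The cholinergic gate was changed to at least 2 Slc5a7 UMIs, because no row has the symbol Chat. Counts were summed per library and gate where every library had at least 20 nuclei. Tests were edgeR 4.0.16 quasi-likelihood fits (TMM factors, filterByExpr, Benjamini-Hochberg over all genes tested, threshold 0.05) on 3 against 3 libraries, with DESeq2 1.42.0 as an alternative, and were tested on simulated data. The difference between the Drd2 and Drd1 gates was fitted with the library as a block. CPM are UMIs per 1000000 of a sum. Intervals cover counting error only. The low-count filter kept all 10 members in the Drd2 gate, 5 in Drd1, 9 in Chst9 and 7 to 9 in the others.

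Named genes were the members in every gate, list genes that passed the test in the Drd2 or Drd1 gate (none did), and the 5 genes most like the members; others were named after their values were seen and are marked so or belong to the lists. The members and lists were chosen with earlier results of these data known.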

Additional observations from a re-analysis of the deposited data

How the results depend on the processing

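No paired analysis was possible because the groups share no replicate numbers. Counts of called genes depended on the setting, and the cause was not tested. With DESeq2 the calls were 111 in Drd2-gated nuclei, 42 in astrocytes, 53 in oligodendrocytes, 3 in precursors and 14 in microglia. Without the filter on low counts, which adds many genes to the test, they were 97 in Drd2-gated, 35 in Drd1-gated, 146 in Chst9-gated and 33 in cholinergic nuclei, 141 in astrocytes, 88 in oligodendrocytes, 51 in precursors and 95 in microglia. A gate of at least 3 UMIs gave 4 calls for Drd2 and 0 for Drd1, and a gate of at least 1 UMI gave 18 and 13. Taking only nuclei that pass no other gate gave 0 in Drd1-gated nuclei and 28 in astrocytes. At least 1000 genes per nucleus gave 9 in oligodendrocytes and 2 in microglia, and keeping doublets gave 6 in precursors and 2 in microglia. Of alternatives added after the data were seen, an Adora2a or Penk UMI gave 3 calls in Drd2-gated nuclei, male nuclei alone 1, female nuclei alone 0, and removing nuclei with both Xist and Y-linked UMIs gave 22 in Drd2-gated and 1 in Drd1-gated nuclei. The difference between the Drd2 and Drd1 gates gave 20 calls among other genes with gates of at least 1 UMI. Leaving out 1 library gave 0 to 246 calls in Drd2-gated, 0 to 14 in Drd1-gated and 0 to 15 in Chst9-gated nuclei, 0 in cholinergic nuclei and precursors, 1 to 21 in astrocytes, 0 to 16 in oligodendrocytes, 2 to 6 in microglia and 5 to 21 for the difference between gates.

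In Drd2-gated nuclei the direction of 9 members was the same under every alternative run (16 to 18 each): the log2 change of Cdc14a lay between 0.98 and 2.02, that of Bcl2 between 0.835 and 1.88, and that of Bcar3 between -1.04 and -0.59. Ranges were wider for the members with fewer counts, at 0.416 (female nuclei) to 2.08 (male nuclei) for Tmem178a, 0.873 (female nuclei) to 2.02 (gate of at least 1 UMI) for Plagl1, 0.547 to 1.43 for Fgfr1 and 1.07 (without naloxone replicate 6) to 2.43 for Hsf2bp. Without naloxone replicate 6 Tmem178a was at 0.662. Ubash3b lay between 0.768 and 1.95 and Gng2 between 0.699 and 1.71. Abtb2 kept its sign in 15 of 17, and was at 0.0405 without naloxone replicate 5 and at 0.182 without nuclei of both kinds. In Drd1-gated nuclei 3 log2 changes turned sign, that of Ubash3b to -0.0344 when nuclei with UMIs of both sexes were left out, that of Bcl2 to -0.0642 with at least 3 Drd1 UMIs and that of Tmem178a to -0.106 without naloxone replicate 6 (up to 0.595 without other libraries), and no member passed the threshold in any alternative.

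The Drd1 gate rests on 75 to 177 nuclei per library, so changes of members with few UMIs were not detectable there at this depth. Groups of 3 libraries allowed no test for outlying samples.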
